A study of Mus musculus with 6 samples.

Results

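Small nucleolar RNAs (snoRNAs) and small Cajal body RNAs (scaRNAs) were examined in cultured satellite cells, the stem cells of skeletal muscle. The genes were those that the GENCODE M21 annotation classes as snoRNA or scaRNA and that held at least 10 raw counts summed over the 6 samples, which left 246 genes of 1558 annotated ones and of 55536 genes in the count tables. Of the other annotated genes, 1086 were listed at 0 counts in every sample. The 246 genes fell into 39 box C/D snoRNAs named Snord, 15 box H/ACA snoRNAs named Snora, 20 scaRNAs by biotype or name, of which 13 carried only a Gm number, and 172 others, of which 167 carried only a Gm number. The counts themselves chose the genes, so the levels of the genes that follow are a description. The rule used the sum over both genotypes.

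RNA-seq was performed on 3 control and 3 cKO samples. Control cells came from Pax7CreErt2;Hira fl/+ mice, which the labels call WT, and cKO cells from Pax7CreErt2;Hira fl/fl mice. Both genotypes were adult C57BL/6J males of 8 to 12 weeks, both carried the Cre and at least 1 floxed Hira allele, and both received a tamoxifen diet of 2 weeks followed by regular food for 1 week, and an injury of the tibialis anterior muscle with BaCl2. CreErt2 driven by Pax7 restricts the deletion to cells that expressed Pax7, and Hira encodes a chaperone that deposits histone H3.3. Satellite cells were sorted 5 days post-injury, kept for 48 h in high serum medium at low density, and their RNA was depleted of ribosomal RNA, fragmented to about 300 bp and read as single-end 75 bp reads. The samples are called independent RNA samples, and nothing states that each was a separate mouse, so p-values measure only the spread between these samples.

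Box C/D snoRNAs guide the methylation of ribose in ribosomal RNA, and box H/ACA snoRNAs guide the conversion of uridine to pseudouridine. Each works in a particle with 4 core proteins, which are Fbl, Nop56, Nop58 and Snu13 for box C/D and Dkc1, Nop10, Nhp2 and Gar1 for box H/ACA. scaRNAs carry the boxes of one or both kinds, reside in Cajal bodies and guide the same modifications of spliceosomal RNAs. In mammals most of these RNAs are cut from the introns of host genes, and a few, such as U8 (Snord118), are made from promoters of their own.

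Totals of 47944477 to 63323577 counts per sample were recorded. The 246 genes held 14528 to 21937 of these, or 0.0303% to 0.0350%, in libraries whose fragments were longer than many of these RNAs. The targeted gene, Hira, had 375, 348 and 341 counts in the control and 161, 293 and 272 in cKO samples (log2 fold change -0.43, SE 0.12, adjusted p = 0.0237, edgeR). Among markers listed by name, 7 of 9 tested satellite and myogenic genes were lower and 1 higher in cKO, while 10 of 10 macrophage, 4 of 8 endothelial and 4 of 7 fibroblast genes were higher. Summed macrophage markers ranged from 136 to 140 CPM (counts scaled to a common library total) in control and from 287 to 336 CPM in cKO samples, fibroblast markers from 527 to 553 and from 783 to 876 CPM, endothelial markers from 16.4 to 18.8 and from 26.2 to 31.8 CPM, and satellite and myogenic markers from 6985 to 7126 and from 6200 to 6666 CPM. No list had a gene at 0 in all samples. The part of other cell types in the results below was not tested.

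Other short RNAs differed between the libraries, and in the classes below the first control sample stood apart from the other two. Rn7sk, an abundant nuclear RNA outside the snoRNA class, took 0.880%, 1.36% and 1.44% of all counts in the control libraries (replicates 1, 2 and 3) against 0.646%, 0.527% and 0.766% in the cKO libraries. Genes of the misc_RNA class without Rn7sk summed to 2594, 4120 and 4135 CPM in control and to 2026, 1556 and 2215 CPM in cKO. Genes of the snRNA class summed to 193, 273 and 301 CPM in control and to 202, 160 and 191 CPM in cKO. For both of these sums and for Rn7sk the lowest control sample was replicate 1, and several genes below follow the same order. Genes of the miRNA and rRNA classes had replicate 1 as the highest control sample. The miRNA genes summed to 283, 216 and 204 CPM in control and to 123, 154 and 177 CPM in cKO, and the rRNA genes to 185, 111 and 113 CPM and to 65.6, 42.4 and 47.2 CPM. The part of these differences in the results was not tested.

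The sequences of the genes that carry the results are given first, as annotated in GENCODE M21 on mm10 and printed as DNA from 5′ to 3′. The letters searched were TGATGA, the C box, within the first 25 bases, CTGA, the D box, within the last 20 bases, and ACA within the last 10 bases, on the gene's own strand. Capitals mark both boxes or, without both, the ACA. The pair of boxes stood in 24 of the 39 genes named as C/D (61.5%), in none of the 15 H/ACA genes, in 5 of the 20 scaRNAs and in 20 of the 172 others. The ACA stood in 15 of 15 H/ACA genes, in 11 scaRNAs, in 100 of the others and in 5 C/D genes. Neither was found in 70 genes.

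The 4 genes with the lowest adjusted p among those lower in cKO are shown with Gm25395, which shares a host gene with Scarna6 and was added after its values were seen. Scarna6 (chr1:87784556-87784820, plus strand) and Gm25395 (chr1:87776938-87777209, plus strand) lie in introns of Atg16l1, Scarna13 (chr12:105031075-105031349, minus strand) lies in an intron of Snhg10, Snora57 (chr19:8888538-8888685, minus strand) has no annotated host, and Snora78 (chr17:24719676-24719803, minus strand) lies in an intron of Snhg9.
Scarna6: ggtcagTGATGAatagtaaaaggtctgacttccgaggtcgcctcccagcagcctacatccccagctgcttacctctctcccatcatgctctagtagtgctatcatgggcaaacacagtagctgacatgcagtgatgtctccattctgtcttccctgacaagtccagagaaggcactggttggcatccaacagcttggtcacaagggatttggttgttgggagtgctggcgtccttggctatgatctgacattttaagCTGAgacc
Gm25395: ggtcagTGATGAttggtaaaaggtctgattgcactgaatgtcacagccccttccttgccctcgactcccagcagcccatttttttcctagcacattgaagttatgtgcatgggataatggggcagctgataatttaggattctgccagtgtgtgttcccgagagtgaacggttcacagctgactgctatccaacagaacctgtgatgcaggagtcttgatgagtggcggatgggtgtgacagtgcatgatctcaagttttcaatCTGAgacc
Scarna13: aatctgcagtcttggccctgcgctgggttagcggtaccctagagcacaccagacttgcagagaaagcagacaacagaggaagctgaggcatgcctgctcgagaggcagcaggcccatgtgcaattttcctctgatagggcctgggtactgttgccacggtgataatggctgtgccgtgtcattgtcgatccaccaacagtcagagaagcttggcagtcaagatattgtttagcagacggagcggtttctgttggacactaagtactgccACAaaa
Snora57: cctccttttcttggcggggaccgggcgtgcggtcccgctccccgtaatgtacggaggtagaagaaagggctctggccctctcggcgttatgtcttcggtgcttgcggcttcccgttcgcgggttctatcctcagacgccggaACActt
Snora78: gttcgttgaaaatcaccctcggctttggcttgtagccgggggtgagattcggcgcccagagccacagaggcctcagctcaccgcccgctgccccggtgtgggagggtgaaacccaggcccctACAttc

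A global alignment of Scarna6 with Gm25395 gave 184 identical of 294 columns (62.6%). Neither had an exact 75-base stretch in common with another annotated transcript.

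The gene higher in cKO, Gm22771 (chr11:74906109-74906199, plus strand, intron of Tsr1), and the genes of highest mean level in their class are shown next. These were Snord17 (chr2:144265979-144266216, minus strand, intron of Snx5) for C/D, Snora31 (chr14:75847905-75848034, plus strand, intron of Tpt1) for H/ACA, and Gm24339 (chr9:15326464-15326539, minus strand, intron of Cep295) for the others. Snord118 (chr11:69073427-69073561, plus strand) stands for the snoRNAs with promoters of their own. In Gm22771 and Snord118 no capitals are set, since CTGA was in its window but TGATGA and ACA were not in theirs.
Gm22771: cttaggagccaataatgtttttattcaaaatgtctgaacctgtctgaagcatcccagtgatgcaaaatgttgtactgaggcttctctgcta
Snord17: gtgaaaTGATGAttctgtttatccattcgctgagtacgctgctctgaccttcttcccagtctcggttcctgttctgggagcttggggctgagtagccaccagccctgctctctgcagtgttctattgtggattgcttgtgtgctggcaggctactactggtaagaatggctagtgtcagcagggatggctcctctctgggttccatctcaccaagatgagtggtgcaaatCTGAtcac
Snora31: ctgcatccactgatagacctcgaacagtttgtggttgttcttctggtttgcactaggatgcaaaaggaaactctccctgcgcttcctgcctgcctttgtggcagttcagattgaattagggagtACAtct
Gm24339: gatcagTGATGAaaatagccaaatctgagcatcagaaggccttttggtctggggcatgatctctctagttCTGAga
Snord118: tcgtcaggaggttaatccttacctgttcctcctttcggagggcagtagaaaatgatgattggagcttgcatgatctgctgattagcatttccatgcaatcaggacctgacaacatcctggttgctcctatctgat

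The levels were uneven. The 20 scaRNAs held 65.2% of the counts on the 246 genes, the others 21.03%, the C/D snoRNAs 7.41% and the H/ACA snoRNAs 6.36%. Gm22009, a scaRNA of 343 bases in an intron of Kpna4, which encodes an importin, held 31.4% alone. Scarna2, of 414 bases and without an annotated host, held 16.8%, and Scarna13 held 8.23%. At the other end, 29 genes had 10 to 12 counts in all and were just inside the limit, for example Gm22039 with 10, and 41 genes with 7 to 9 counts were just outside, for example AF357341 with 9.

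To ask whether these RNAs differed between genotypes, the counts of all genes were compared with edgeR (quasi-likelihood test). Among the 246 genes, 105 had enough counts for the test and 141 did not. With an adjusted p under 0.05 over the 22404 genes tested, 13 of the 105 (12.4%) were lower in cKO and 1 (0.952%) was higher. Over all tested genes 6.46% were lower and 9.38% higher. All 6 samples reached the filter's level of 0.173 CPM in 75 of the 105, of which 12 were lower and none higher. The 13 lower genes were 4 of 10 tested scaRNAs, 2 of 10 H/ACA snoRNAs, 2 of 25 C/D snoRNAs and 5 of 60 others, and the higher gene was 1 of the others. By unadjusted p under 0.05, 20 were lower and 10 higher. The count of 13 fell to 6 without control replicate 2 and to 7 without control replicate 3. DESeq2 gave 7, with an adjusted p for 88 of the 246 genes. The count of 1 fell to 0 without control replicate 1, without cKO replicate 2 and by DESeq2, and rose to 2 without control replicate 2. Gm22771, the higher gene, was called in 6 of 13 other fits. Where the count stayed at 1 with a sample left out, the call was on another gene.

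Most of the genes did not move together. Of the 105 genes, 56 had a fitted log2 fold change below 0 and 49 above, with a median of -0.027 beside -0.0011 over all tested genes. The medians were 0.013 for C/D, 0.12 for H/ACA, -0.26 for scaRNA genes and -0.035 for the others. With no filter on low counts, over all 20 scaRNA genes, the median was 0.044. The median standard error was 0.27 on the log2 scale, so changes of the size seen in the abundant genes were not detectable in most of the 105. The groups did not overlap in 10 genes lower in cKO (9.52%, beside 11.1% of all tested genes) and in 12 genes higher in cKO (11.4%, beside 20.3%). Of the 105 genes, 20 reached the filter's level in every sample of 1 group only and 10 in every sample of neither. The filter's part in these counts was not tested.

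**Figure D1:**
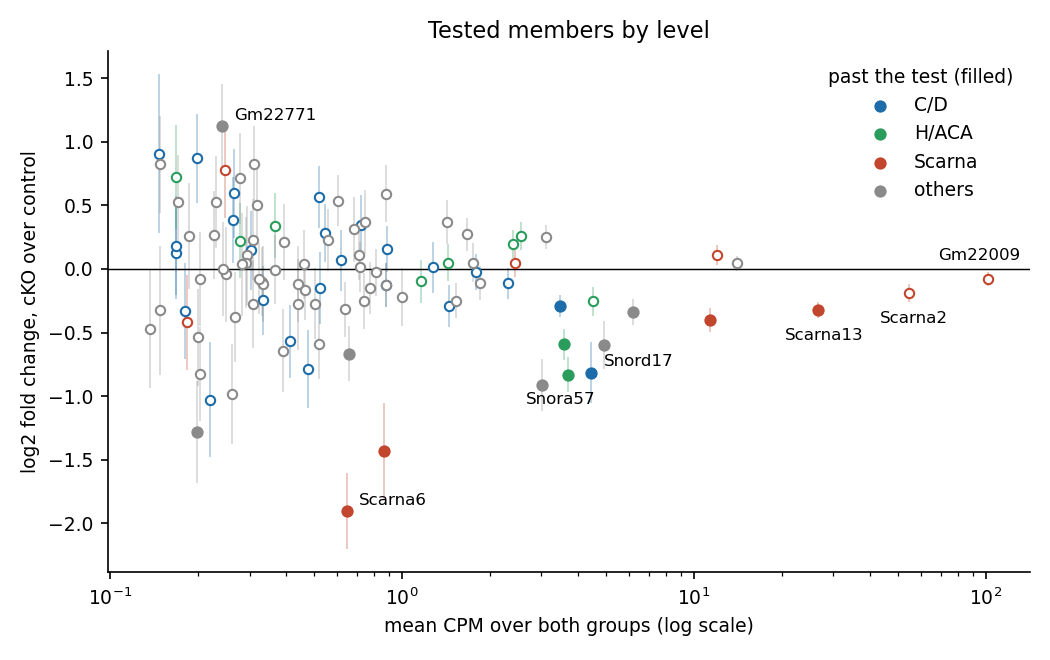
Log2 fold change of cKO over control (vertical axis, bars show the standard error) against the mean CPM over both groups (horizontal axis, log scale) for the 105 tested genes, coloured by class, with filled points for genes past the test. Among the filled points 13 lie below 0 and 1, Gm22771, lies above.

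The calls were spread unevenly over level. Of the 21 genes with a mean of 100 counts or more per sample, 9 were lower and none higher in cKO, where 9.16% of all genes at that level were lower and 11% higher. Of the 84 genes with fewer counts, 4 were lower and 1 was higher, where 0.752% and 6.03% of all such genes were. The 9 included 2 H/ACA, 2 C/D and 2 scaRNA genes along with Gm24336, Gm26397 and Gm26448. The count of 9 fell to 5 without control replicate 2, without control replicate 3 and with DESeq2. Without cKO replicate 1, 8 of the 21 were lower and 1 was higher.

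The scaRNAs, which guide the modification of spliceosomal RNAs, had 4 of 10 tested genes called lower, while the others had the most lower calls, 5, of 60 tested. Scarna6 had 34, 73 and 79 counts in the control and 14, 16 and 15 in cKO samples. All cKO values lay below all control values, and the mean level was 1.01 ± 0.363 CPM in the control against 0.277 ± 0.013 CPM in the cKO group (SD, n = 3 each). The log2 fold change was -1.90 (SE 0.30, adjusted p = 0.000363, edgeR), the largest fall among the 105 genes.

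Gm25395, the other scaRNA gene of Atg16l1, had 31, 82 and 117 counts in the control and 25, 16 and 36 in cKO samples. Control replicate 1 lay within the cKO range. The log2 fold change was -1.43 (SE 0.38, adjusted p = 0.0173, edgeR), and the adjusted p was 0.0536 without control replicate 2, 0.122 without control replicate 3 and 0.0640 without cKO replicate 2.

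Scarna13 had 1602, 1899 and 1832 counts in the control and 1194, 1249 and 1431 in cKO samples. The groups did not overlap, at 29.4 ± 0.918 CPM in the control against 23.9 ± 2.42 CPM in the cKO group (SD, n = 3 each), with a log2 fold change of -0.33 (SE 0.06, adjusted p = 0.00196, edgeR). Of its bases, 23.6% lie over an exon of another annotated gene on the same strand, and the assignment of reads there is uncertain.

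Gm22442 lies in an intron of Chd3, which encodes a chromatin remodeller. It had 654, 860 and 822 counts in the control and 481, 495 and 631 in cKO samples, with no overlap between the groups in CPM and a log2 fold change of -0.40 (SE 0.09, adjusted p = 0.00772, edgeR).

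The most abundant scaRNA genes did not pass the test. Gm22009 had 98.7, 103 and 108 CPM in control and 91.1, 111 and 96.8 CPM in cKO samples, so that the groups overlapped (log2 fold change -0.079, SE 0.05, adjusted p = 0.397, edgeR). Without cKO replicate 2 the adjusted p was 0.0159. Scarna2 had 57.3, 62.2 and 53.8 CPM in control and 56.6, 44.9 and 52.9 CPM in cKO samples (log2 fold change -0.19, SE 0.07, adjusted p = 0.0812, edgeR). Without cKO replicate 1 its adjusted p was 0.00458. Gm23119 went the other way, at 10.9, 11.3 and 12.2 CPM in control and 10.7, 12.98 and 13.97 CPM in cKO samples (log2 fold change 0.11, SE 0.08, adjusted p = 0.436, edgeR). Without cKO replicate 1 its adjusted p was 0.0411. The other 3 tested scaRNA genes, Scarna9, Scarna17 and Gm23751, had log2 fold changes of -0.42, 0.046 and 0.78 and were not called.

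Of the H/ACA snoRNAs, which guide pseudouridine formation, Snora57 showed the firmest difference. It had 249, 295 and 310 counts in the control and 124, 123 and 191 in cKO samples. The groups did not overlap, at 4.70 ± 0.325 CPM in the control against 2.70 ± 0.677 CPM in the cKO group (SD, n = 3 each), and the log2 fold change was -0.83 (SE 0.14, adjusted p = 0.000568, edgeR).

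Snora78 had 194, 317 and 267 counts in the control and 145, 161 and 163 in cKO samples. The groups did not overlap in CPM, with 4.26 ± 0.791 in control and 2.89 ± 0.154 in cKO (SD, n = 3 each) and a log2 fold change of -0.59 (SE 0.12, adjusted p = 0.0038, edgeR).

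Snora31, the H/ACA gene of the highest level, had 4.92, 4.30 and 5.44 CPM in control and 3.46, 4.18 and 4.78 CPM in cKO samples and overlapped between groups (log2 fold change -0.25, SE 0.12, adjusted p = 0.165, edgeR). Snora23 and Snora62 had every cKO sample above every control sample, with log2 fold changes of 0.26 and 0.20, but did not pass the test (adjusted p = 0.141 and 0.272, edgeR). Of the 10 tested H/ACA genes, 4 were fitted below 0 and 6 above.

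Of the box C/D snoRNAs, which guide ribose methylation, Snord17 and Snord104 were lower in cKO. Snord17, the most abundant of the class, had 168, 377 and 485 counts in the control and 160, 177 and 194 in cKO samples. Control replicate 1, at 2.97 CPM, lay below all 3 cKO samples, which had 3.34, 2.99 and 3.47 CPM, while control replicates 2 and 3 had 5.95 and 7.90 CPM. The log2 fold change was -0.82 (SE 0.24, adjusted p = 0.0285, edgeR), and the adjusted p was 0.0918 without control replicate 2, 0.185 without control replicate 3, 0.0720 without cKO replicate 2 and 0.0727 without cKO replicate 3. DESeq2 gave 0.216.

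Snord104, with no annotated host, had 208, 243 and 238 counts in the control and 142, 195 and 178 in cKO samples. Its groups did not overlap, and the log2 fold change was -0.29 (SE 0.09, adjusted p = 0.0374, edgeR). Leaving out any sample but cKO replicate 2 took the adjusted p above the threshold, to 0.0651, 0.112 and 0.114 without control replicates 1, 2 and 3 and to 0.0942 and 0.0762 without cKO replicates 1 and 3.

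Snord49a, Snord83b and Snord34, the next C/D genes by level, had log2 fold changes of -0.11, -0.024 and -0.29 and overlapped between groups. Snord49a lies in 2410006H16Rik, Snord83b in Rpl3 and Snord34 in Rpl13a, the latter pair being genes of ribosomal proteins. Of the 25 tested C/D genes, 12 were fitted below 0 and 13 above.

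Snord118 (U8), made from its own promoter and needed for the maturation of the large ribosomal subunit, had 10, 20 and 24 counts in the control and 4, 5 and 15 in cKO samples (log2 fold change -1.03, SE 0.45, adjusted p = 0.151, edgeR). Only 1 of its cKO samples reached the filter's level, so it was tested through the group where it was high. The adjusted p was 0.0325 without cKO replicate 3, the highest cKO sample, and 0.0912 to 0.421 without each of the others (edgeR). U3, the most abundant box C/D snoRNA of most cells, gave no value. Its 10 annotated entries under 5 symbols (Rnu3a and Rnu3b1 to Rnu3b4) were all listed at 0 counts, and each overlaps an exon of another annotated entry in whole or in part.

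Among the others, 5 genes were lower. Gm24336, in an intron of Cwf19l1, had 139, 272 and 303 counts in the control and 103, 103 and 139 in cKO samples. Control replicate 1, at 2.46 CPM, lay just below the highest cKO sample, at 2.49 CPM. The log2 fold change was -0.91 (SE 0.20, adjusted p = 0.00618, edgeR), and DESeq2 gave an adjusted p of 0.0518.

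Gm26397, in an intron of Tomm20 (a receptor for import into mitochondria), had 317, 457 and 470 counts in the control and 247, 321 and 328 in cKO samples, and control replicate 1 lay within the cKO range in CPM (log2 fold change -0.34, SE 0.10, adjusted p = 0.0349, edgeR). Its adjusted p was 0.138 without control replicate 2, 0.182 without control replicate 3, 0.0633 without cKO replicate 1 and 0.0743 without cKO replicate 2.

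Gm26448, in an intron of Rpsa (a ribosomal protein gene), had 207, 408 and 457 counts in the control and 189, 205 and 249 in cKO samples, with the same position of control replicate 1 (log2 fold change -0.60, SE 0.19, adjusted p = 0.0420, edgeR). Its adjusted p was 0.151 without control replicate 2, 0.235 without control replicate 3, 0.119 without cKO replicate 2 and 0.0597 without cKO replicate 3.

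The last of the lower genes and the higher one rested on few counts. Gm25788, in an intron of Pabpc4 (a poly(A)-binding protein), had 42, 56 and 48 counts in the control and 21, 27 and 36 in cKO samples (log2 fold change -0.67, SE 0.22, adjusted p = 0.0491, edgeR). It passed the test with all samples and without cKO replicate 3, and its adjusted p was 0.0774 to 0.173 without each of the others. Gm22358, with no host, had 21, 18 and 12 counts in the control and 3, 9 and 7 in cKO samples (log2 fold change -1.29, SE 0.40, adjusted p = 0.0407, edgeR). None of its cKO samples reached the filter's level, so it was tested through the group where it was high. Of its 75-base stretches, 31.3% also occur in another annotated gene, and its adjusted p was 0.165 and 0.109 without control replicates 1 and 2 and 0.119 and 0.0974 without cKO replicates 1 and 3.

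Gm22771, the single gene called higher, had 6, 12 and 9 counts in the control and 18, 19 and 17 in cKO samples, with no overlap (log2 fold change 1.12, SE 0.33, adjusted p = 0.0297, edgeR). Only 1 of its control samples reached the filter's level, so it was tested through the group where it was high. The adjusted p was 0.127 and 0.0933 without control replicates 1 and 3, and 0.0808, 0.0629 and 0.0626 without cKO replicates 1, 2 and 3. Gm24339, the most abundant of the others, had 13.8, 13.5 and 13.9 CPM in control and 13.5, 15.5 and 14.1 CPM in cKO samples (log2 fold change 0.043, adjusted p = 0.703, edgeR).

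**Figure D2:**
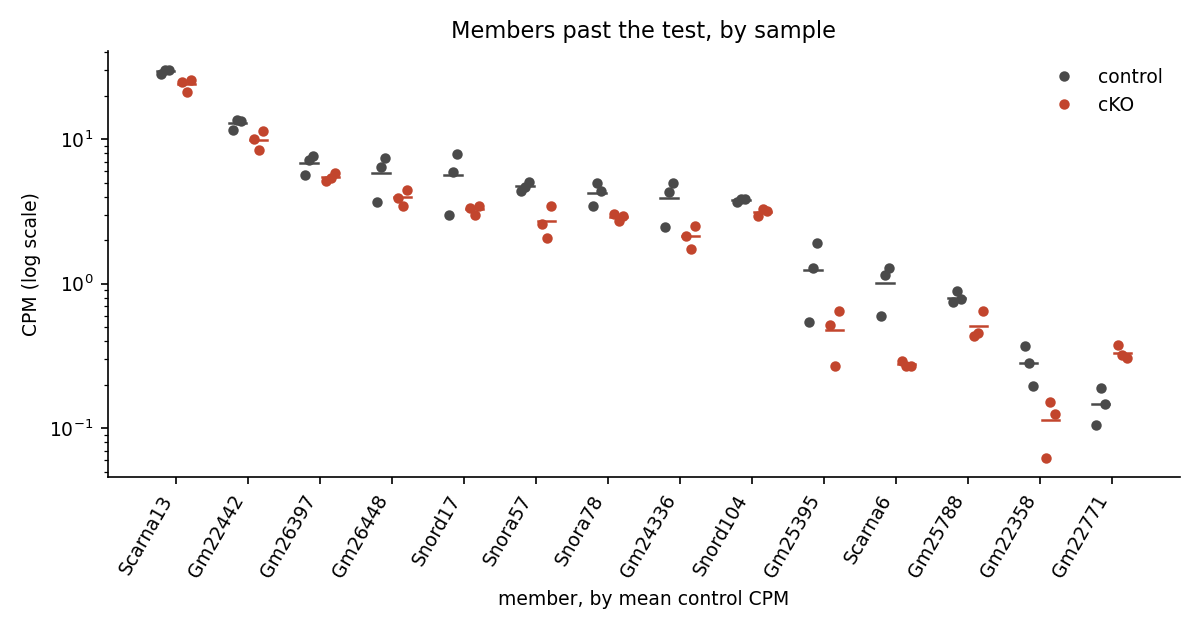
CPM (vertical axis, log scale) in each control (grey) and cKO (red) sample for the 14 genes past the test, ordered by mean control level, with a line at each mean. In Snord17, Gm24336, Gm26448, Gm26397 and Gm25395 the lowest control point, replicate 1, lies at the level of the cKO samples.

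Scarna6, Snora57, Scarna13, Snora78 and Gm22442 were called lower in all of 13 other fits, which changed the test, the scaling, the filter, the design or left out 1 sample. The largest adjusted p without any 1 sample was 0.00395 for Scarna6, 0.00652 for Snora57, 0.0157 for Scarna13, 0.0279 for Snora78 and 0.0477 for Gm22442 (edgeR). Gm24336 was called in 12 of the 13, and the remaining 8 genes in 5 to 10.

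The calls are given by annotated length, beside 6.46% lower and 9.38% higher over all tested genes. Of 8 tested genes of 200 bases or more, 5 were lower (Scarna6, Gm25395, Scarna13, Snord17 and Gm26448), with a median log2 fold change of -0.46. Of 57 tested genes of 100 bases or more but under 200, 7 were lower and none higher (median -0.0046). Of 40 tested genes under 100 bases, 1 was lower and 1 higher (median 0.028). The remaining long genes were Gm22009, Scarna2 and Gm24119, with log2 fold changes of -0.079, -0.19 and 0.11. The count of 5 was 2 without control replicate 2 or control replicate 3 and 3 without cKO replicate 2 or cKO replicate 3. Long genes were also the more abundant ones, and over the 105 genes Spearman's rho of the log2 fold change was -0.13 with length, -0.22 with mean CPM and -0.19 with GC content, as a description of genes that share libraries.

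**Figure D3:**
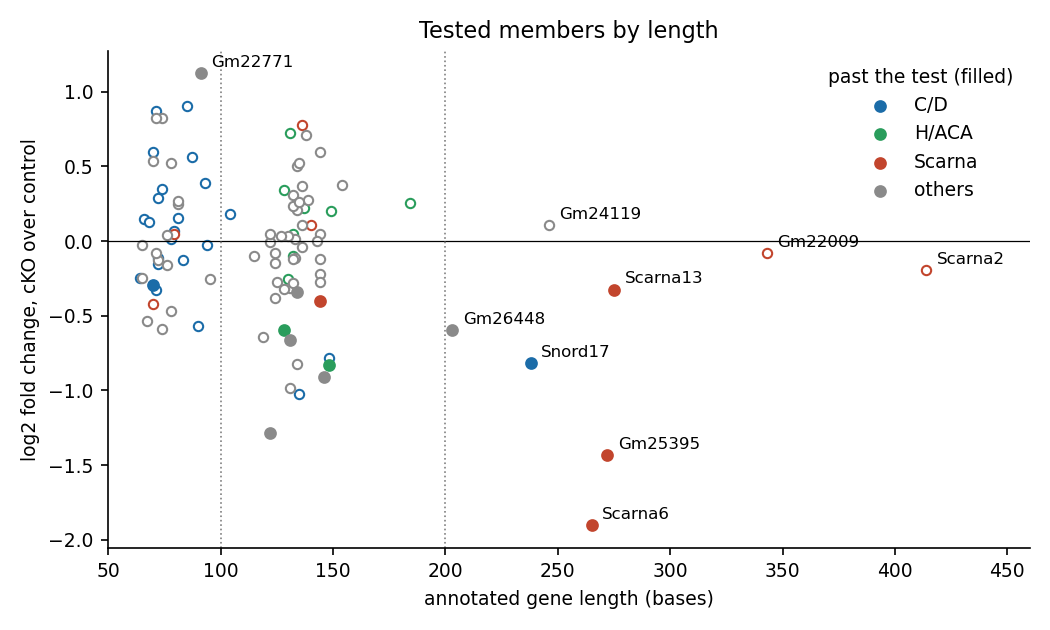
Log2 fold change of cKO over control (vertical axis) against the annotated gene length in bases (horizontal axis) for the 105 tested genes, coloured by class and filled where past the test, with dotted lines at 100 and 200 bases. Of the 8 genes at 200 bases or more, 7 lie below 0 and 5 are filled.

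The summed level of each class gives 1 value per sample and includes genes with too few counts for the test. All 246 genes together summed to 316, 346 and 350 CPM in control and to 303, 312 and 316 CPM in cKO samples. The cKO samples lay below the control samples, with the highest cKO sample, at 315.95 CPM, next to the lowest control sample, at 316.14 CPM. The log2 difference was -0.12 (SE 0.05, two-sided exact permutation p = 0.1, the smallest that 3 against 3 samples allow).

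The scaRNA genes summed to 211, 226 and 224 CPM in control and to 198, 203 and 205 CPM in cKO samples, a log2 difference of -0.13 (SE 0.04, exact p = 0.1). The H/ACA genes summed to 20.8, 22.1 and 23.3 CPM and to 18.3, 18.5 and 20.4 CPM, a log2 difference of -0.21 (SE 0.07, exact p = 0.1). In both classes the groups did not overlap. In mean CPM, Snora57 and Snora78 together fell by more than the H/ACA sum did. The median log2 fold change over the 10 tested H/ACA genes was 0.12. The C/D genes summed to 21.4, 27.1 and 27.9 CPM and to 22.7, 22.0 and 22.7 CPM, so that control replicate 1 was the lowest of all (log2 difference -0.17, SE 0.12, exact p = 0.4). Without Snord17 the C/D difference was -0.046. The others overlapped as well (log2 difference -0.048, SE 0.08, exact p = 0.6). The ratio of C/D to H/ACA sums differed by 0.043 on the log2 scale (SE 0.09, exact p = 0.7), less than its spread between samples. With adjustment over the 7 exact tests of sums and ratios, the lowest adjusted p was 0.233. In bulk RNA, fewer cells of a type and less RNA per cell cannot be told apart.

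**Figure D4:**
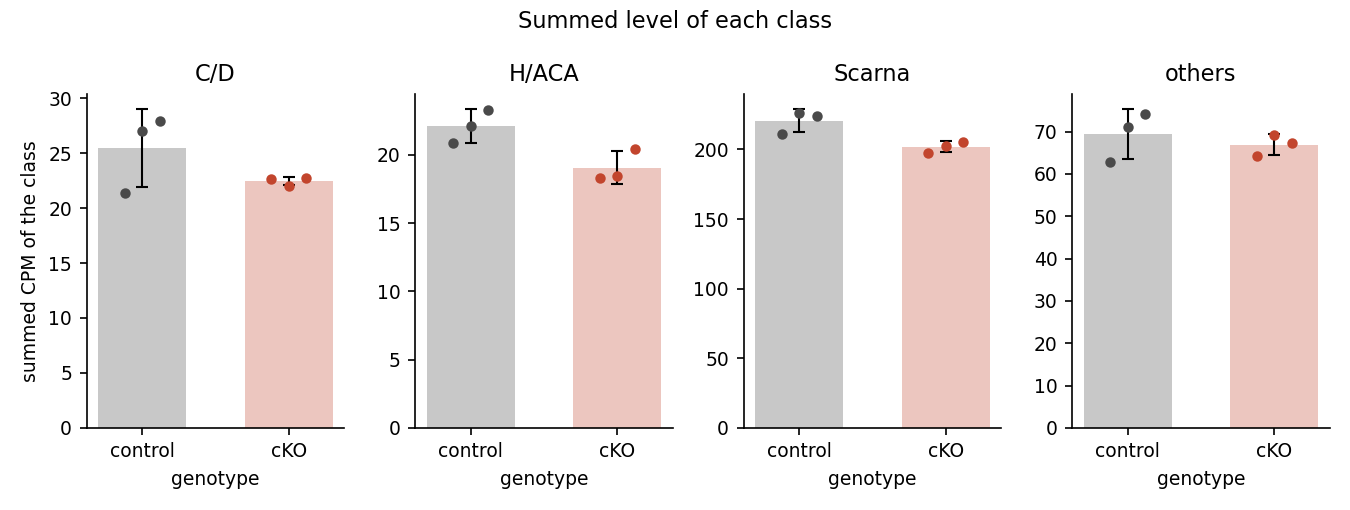
Summed CPM (vertical axes, from 0, with a scale for each class) of the C/D, H/ACA, scaRNA and other genes in control and cKO samples, with points for samples, bars for means and lines for the SD (n = 3). The groups do not overlap for H/ACA and Scarna and overlap for C/D and the others.

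The position in host genes was then compared. Of the 246 genes, 179 lay within 142 host genes on the same strand, 168 of them within introns and 11 partly over a host exon, and 67 had no host. Protein-coding genes hosted 162 of the 179. Genes of ribosomal proteins were hosts of 28 members through 17 genes, and 28 hosts held more than 1 member. Rian, an imprinted non-coding RNA, hosted 4 genes, and none of the 4 had enough counts for the test. The most counted of them, DQ267102, had 3, 7 and 2 counts in the control and 14, 11 and 9 in cKO samples. Reads from an unspliced host transcript that cross the gene and reads from the small RNA itself cannot be told apart.

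Of the tested genes, 89 had a tested host, on 70 distinct hosts, of which 5 were lower and 2 higher in cKO, beside 6.46% and 9.38% of all tested genes. Most hosts had a mean of 100 counts or more, and 9.16% of all genes at that level were lower and 11% higher. No host of a lower gene was itself lower. Among the 11 pairs with a called gene, the gene lay below its host in log2 fold change in 10, with a median difference of -0.70, and in all 89 pairs in 48, with a median difference of -0.030. The 11 were chosen by their own change, so this difference is a description. Spearman's rho between gene and host over the 89 pairs was 0.094. The ratio of the summed level of the 179 genes to that of their 142 hosts differed by -0.13 on the log2 scale (SE 0.07, two-sided exact permutation p = 0.2), and the groups overlapped.

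Atg16l1, which acts in autophagy, had 40.4, 40.2 and 39.7 CPM in control and 39.7, 43.4 and 41.6 CPM in cKO samples (log2 fold change 0.029, SE 0.04, adjusted p = 0.706, edgeR), while Scarna6 and Gm25395 in its introns were lower. Chd3 had 146, 142 and 143 CPM in control and 179, 190 and 180 CPM in cKO samples and was higher (log2 fold change 0.33, SE 0.03), while Gm22442 in its intron was lower. Snx5, a sorting nexin, had a log2 fold change of 0.074 beside -0.82 for Snord17. The non-coding hosts Snhg9 and Snhg10 had log2 fold changes of -0.12 (SE 0.30) and -0.15 (SE 0.20) beside -0.59 for Snora78 and -0.33 for Scarna13. Ncl, which encodes nucleolin, was lower (log2 fold change -0.31, adjusted p = 0.00774, edgeR), and Snord82 in its intron had 17, 11 and 10 counts in the control and 10, 22 and 21 in cKO samples and did not pass the test (log2 fold change 0.59, adjusted p = 0.301, edgeR).

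**Figure D5:**
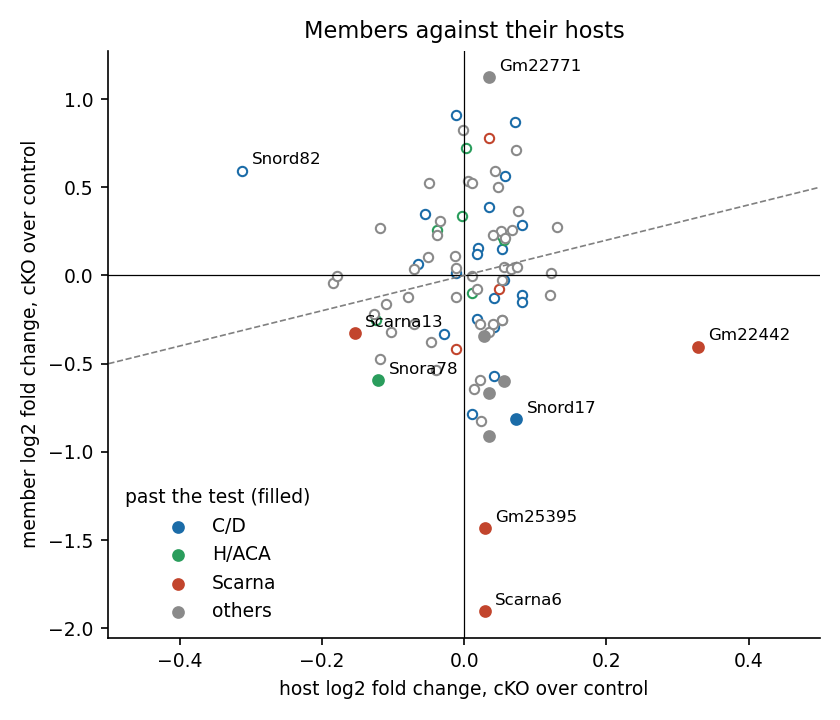
Log2 fold change of each tested gene (vertical axis) against that of its host (horizontal axis) for the 89 pairs, coloured by class and filled where the gene was past the test, with a dashed line where both are equal. The hosts lie between -0.31 and 0.33, and 10 of the 11 filled points lie below the dashed line.

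Genes that share a host were set side by side for the 5 hosts with a called gene and another tested one, a choice made on the change itself. In Snx5, Snord17 had a log2 fold change of -0.82 and Gm26165 one of 0.71, and the difference between them over samples was -1.46 (SE 0.64, two-sided exact permutation p = 0.1). Gm26165 reached the filter's level in 2 control and 3 cKO samples, so only the group where it was high was complete. In Rpsa, Gm26448 had -0.60 and Snora62 had 0.20 (difference -0.72, SE 0.36, exact p = 0.3). In Pabpc4, Gm25788 had -0.67 and Gm22154 had -0.32 (difference -0.34, SE 0.13, exact p = 0.1), and in Tsr1, Gm22771 had 1.12 and Snord91a had 0.39 (Snord91a minus Gm22771 -0.80, SE 0.30, exact p = 0.1). In Atg16l1 the fall of Scarna6 exceeded that of Gm25395 by 0.48 (SE 0.41, exact p = 0.3), beside a similar error. None of the 5 comparisons could go below the exact p of 0.1, and the lowest adjusted p over the 5 was 0.167.

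Per kilobase, the level of a gene relative to its host ranged widely. In CPM per kilobase of exonic sequence, 11 of the 89 genes were above their host, and the median ratio was 0.13. Scarna13 was at 67.1 times the level of Snhg10, Gm22009 at 17.1 times that of Kpna4, Snora78 at 14.1 times that of Snhg9, Gm24336 at 7.47 times that of Cwf19l1, Gm22442 at 4.09 times that of Chd3 and Gm26397 at 2.44 times that of Tomm20. Scarna6 and Gm25395 were at 0.575 and 0.750 times the level of Atg16l1. Of the 11 called genes with a host, 5 were above it. The levels were divided by full annotated lengths, and Snhg9 and Snhg10 have only 183 and 529 bases of exonic sequence. No correction was made for reads across exon junctions of a host or for reads that lie only partly within a short gene. Their part in these ratios was not tested, so the ratios are a description.

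Counts were also compared with the overlap by exons of other genes. Of the 1558 annotated genes, 163 are covered in full by an exon of another gene on the same strand and 15 by an exon on the opposite strand, and all 178 were listed at 0 counts. Of the 1312 genes with no such overlap, 443 (33.8%) had at least 1 count, and of 68 with partial overlap 29 (42.6%) did. Among the 246 genes, 5 had every 75-base stretch in common with another annotated gene, and none of these was called.

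The proteins that build these particles were compared from lists of gene names. None of the 4 box C/D core proteins was called, with log2 fold changes of -0.071 for Fbl, the methyltransferase, 0.024 for Nop56, 0.011 for Nop58 and -0.030 for Snu13. None of the 4 H/ACA core proteins was called, with -0.039 for Dkc1, the pseudouridine synthase, -0.11 for Nop10, 0.071 for Nhp2 and -0.088 for Gar1. None of 11 tested assembly factors was called either.

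In the remaining lists 6 genes were called. Of 12 genes listed under Cajal bodies, only Sp100 was called, and it was higher (0.296 CPM in control, 0.835 CPM in cKO, log2 fold change 1.47, adjusted p = 0.000751, edgeR). Sp100 is a component of nuclear bodies other than Cajal bodies and responds to interferon. Of 18 genes listed under snoRNA end processing, Mtrex, a helicase of the nuclear exosome, was higher (log2 fold change 0.13) and Lsm6, which binds the tails of small RNAs, was lower (-0.13). Of 37 genes of rRNA synthesis and processing, Taf1d, a subunit of an RNA polymerase I factor, was higher (0.22), Dimt1, an rRNA methyltransferase, was higher (0.18) and Ncl was lower (-0.31). Over the 86 tested genes of these lists, 2 were lower and 4 higher, where 6.46% and 9.38% of all tested genes were, and the median log2 fold change was -0.0036. Most of the listed genes had a mean of 100 counts or more, and 9.16% of all genes at that level were lower and 11% higher.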

How the data were processed

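RNA was measured in 3 control and 3 cKO samples. Reads had been mapped to mm10 by the authors (Bowtie2 2.3.4.2), and featureCounts 1.6.3 gave the raw counts they deposited for each gene; strand, multi-mapping and multi-overlap settings are not given in the sources used here. The authors also deposited a normalized signal per gene, each count over its sample's DESeq2 size factor, used only to check the counts. Their comparison table (mean, fold change, error, test statistic and p-values, made with DESeq2 2.11.40.6) was not used.

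All 55536 gene identifiers matched GENCODE M21, which gave biotypes, coordinates, hosts (a gene on the same strand that contains the RNA) and sequences. Counts were filtered (filterByExpr, minimum count 10), TMM-scaled and tested with edgeR 4.0.16 in R 4.3.3 (quasi-likelihood, genotype only, Benjamini-Hochberg over 22404 genes). A standard error is the fold change divided by the square root of F. The test was checked on simulated counts that gave every gene the same spread between replicates. Totals ran from 47944477 to 63323577. The coefficient of variation between replicates, fitted as a single common value over all tested genes, was 3.92%, and the simulation used it. Some of these RNAs, such as Snord17 and Gm26448, varied between control samples by more than this value and counting error give. Counting error also limits the RNAs with few counts. Class sums were compared by exact permutation. DESeq2 1.42.0, other scalings and filters, a replicate block, other sets of members and leaving out each sample were alternatives.

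Named genes are every called RNA, the 5 (others 3) of highest CPM per class, those with their own promoter, their hosts, and the listed proteins; 1 gene that this rule names is not reported here. The Spearman values, length groups, shared-host comparisons, Gm25395's sequence, and genes given only as examples or contrasts were chosen after values were seen. The members and gene lists were chosen with earlier results of these data known. Summaries used pandas 2.3.3, scipy 1.17.1 and numpy 2.4.6 under Python 3.11.15, and plots used matplotlib 3.10.9.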

Additional observations from a re-analysis of the deposited data

How the results depend on the processing

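The 13 lower calls among the 105 genes tested became 7 and the 1 higher call 0 with DESeq2, which gave an adjusted p to 88 of the 246 genes. At an adjusted p under 0.01 the calls were 6 and 0. The higher calls were 2 with edgeR's likelihood ratio test and 4 with no filter on low counts, where all 246 genes were tested. They were 0 with the replicate number as a block, under which 10 were lower. Leaving out 1 sample gave 6 to 11 lower and 0 to 2 higher calls among 109 to 114 tested genes. Among the pathway proteins it gave 1 to 4 lower and 2 to 4 higher calls, and DESeq2 gave 1 lower. With total counts in place of TMM, 9 were lower and 1 higher. The median log2 fold change stayed between -0.079 and -0.0020 in the alternatives run. The summed levels of all genes, C/D, H/ACA and scaRNA kept their direction in every alternative run. The C/D to H/ACA ratio ranged from -0.036 to 0.090 with 1 sample left out, negative without control replicate 1. Signs turned for 2 named genes near 0: Snord83b was 9.07e-05 with total counts only and -0.14 to 0.079 with 1 sample left out and Gm24339 ranged from -0.014 to 0.080. The cause was not tested. Same-numbered samples did not deviate together (correlations -0.013, -0.0045 and -0.015), so no pairing by number was seen. A weak pairing could go unseen in correlations over all tested genes. Low counts limit most of these genes: 141 of 246 held too few counts for the test, and 84 of the 105 tested had a mean under 100 counts.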
